A study of Mus musculus with 12 samples.

Results

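Chromatin accessibility was compared between primary cortical neurons given alpha-synuclein fibrils together with antisense oligonucleotides against Rab5 (PFF+Rab5 ASO, 3 libraries) and neurons given the vehicle (PBS, 3 libraries), which are 6 of the 12 libraries of an ATAC-seq study. All neurons came from the cortex of embryonic day 18 C57BL/6 mice and were in batch 1. PFF, pre-formed fibrils of alpha-synuclein, were present for 7 days, and the Rab5 ASO, which per the study's methods targets both Rab5a and Rab5b, for the last 3 of these days. The other 6 libraries, from neurons given PFF alone or PFF together with MLi-2 (which inhibits LRRK2, a kinase of Rab proteins), are used only to place the regions found here. Since the fibrils and the ASO both differ between the groups, and no library with PBS and the ASO or with a control ASO was analysed here, the effect of the fibrils and that of the ASO cannot be told apart in this comparison. The groups follow the sample titles, the treatment labels and the series design. In the free-text descriptions the ASO libraries are given PBS rather than PFF.

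The peaks that the authors called in the 6 libraries were merged into regions wherever they shared 1 bp or more, which gave 239521 regions, and 81975 of these had a peak in all 6 libraries. A region is called gained when it had a peak in 3 of 3 PFF+Rab5 ASO and 0 of 3 PBS libraries, and lost in the reverse case. Where all 6 libraries had a peak, its height (fold enrichment over the local background at the summit) was compared as a rank within the library's own list. The rank is given as a percentile, where 100 is the highest peak of the list. For the test with limma, the heights were ranked again in each library among the 81975 regions alone and converted to normal scores. An effect is a difference in standard deviations of that score, not of the percentile. A region is called higher or lower where the Benjamini-Hochberg adjusted p was under 0.05.

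In ATAC-seq the transposase Tn5 cuts DNA where chromatin is open, so peaks mark promoters and distal regulatory elements such as enhancers. Rab5 is a small GTPase that, bound to GTP, recruits effectors to early endosomes and controls their fusion and the sorting of endocytosed cargo, and neurons take up fibrils of alpha-synuclein by endocytosis. Antisense oligonucleotides bind a complementary RNA and lower its level. AP-1 factors, dimers of FOS and JUN proteins, bind many distal elements and are induced in neurons by activity and stress. RFX factors bind a palindromic element known as the X-box and are known as regulators of genes of the cilium.

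A pair of short sequence elements differed in frequency between the classes of region, and 6 of the regions are shown with them. Each is 201 bases of the plus strand of GRCm38 centred on the summit of the library in which the peak ranked highest, and capitals mark the match to the RFX palindrome (first 3) or to the AP-1 element TGANTCA, where N is any base (last 3). The RFX regions include 2 of the 3 with the largest rise in rank, in an intron of Tspan18 and in the body of Dlgap2. These were chosen after their values were seen. The other is a gained RFX region near Slc39a10, which shares the highest mean rank with a region on chromosome 12. The AP-1 regions are the lost region with the highest rank, the region with the largest fall in rank, and a region in Exoc6b.
Tspan18 intron, higher, window chr2:93287479-93287679: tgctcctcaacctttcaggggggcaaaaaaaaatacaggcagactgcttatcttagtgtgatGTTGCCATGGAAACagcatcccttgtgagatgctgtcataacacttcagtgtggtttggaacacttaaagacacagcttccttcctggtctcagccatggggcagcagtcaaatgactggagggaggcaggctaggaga
Dlgap2 body, higher, window chr8:14641951-14642151: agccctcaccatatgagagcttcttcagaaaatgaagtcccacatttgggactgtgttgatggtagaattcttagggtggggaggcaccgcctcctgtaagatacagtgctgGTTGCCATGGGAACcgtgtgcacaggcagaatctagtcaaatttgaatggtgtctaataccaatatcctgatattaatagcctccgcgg
Upstream of Slc39a10, gained, window chr1:46912484-46912684: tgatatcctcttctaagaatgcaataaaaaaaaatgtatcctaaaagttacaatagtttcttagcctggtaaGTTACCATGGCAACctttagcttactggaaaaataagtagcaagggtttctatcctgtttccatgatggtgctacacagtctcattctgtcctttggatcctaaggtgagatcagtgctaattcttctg
Near Gm47358, lost, window chr10:85739691-85739891: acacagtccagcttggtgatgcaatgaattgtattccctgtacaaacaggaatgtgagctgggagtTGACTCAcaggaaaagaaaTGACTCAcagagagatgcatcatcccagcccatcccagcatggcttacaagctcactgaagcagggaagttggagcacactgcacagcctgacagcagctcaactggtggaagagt
Near Gm33501, lower, window chr8:57013926-57014126: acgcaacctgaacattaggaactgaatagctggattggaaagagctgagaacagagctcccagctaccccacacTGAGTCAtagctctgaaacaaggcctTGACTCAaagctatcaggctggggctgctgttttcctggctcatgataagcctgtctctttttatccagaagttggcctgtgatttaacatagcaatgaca
Exoc6b body, lower, window chr6:84893006-84893206: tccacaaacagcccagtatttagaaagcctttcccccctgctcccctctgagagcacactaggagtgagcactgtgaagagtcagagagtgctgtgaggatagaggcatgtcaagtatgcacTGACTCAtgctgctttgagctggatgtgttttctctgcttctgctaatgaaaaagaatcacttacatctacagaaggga
The centre of the match lay 32, 18, 22, 12, 3 and 25 bases from the summit, in the order of the lines. The regions near Gm47358 and Gm33501 each hold 2 AP-1 matches.

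The PFF+Rab5 ASO lists held 184564, 167748 and 162621 peaks and the PBS lists 180875, 137299 and 152058, which overlapped (exact permutation test, two-sided, p = 0.4). Other properties of the lists did not overlap between the groups. The smallest peak width, read as the fragment length that the peak caller used, was 55, 59 and 53 bp against 63, 64 and 62 bp, and the median width was 118, 124 and 112 bp against 134, 131 and 127 bp. A relative measure of depth, from the caller's background and the smallest width, was 1.21, 0.970 and 1.21 against 0.862, 0.845 and 0.905. With 3 libraries against 3, the smallest p that this exact test can give is 0.1, which each of these measures had, and the adjusted p was 0.217 for the median width. With the same number of top peaks from each list, the median widths were 154, 148 and 132 bp against 170, 131 and 139 bp, which overlap (exact permutation test, two-sided, p = 1.0), whereas the smallest width and the depth measure did not overlap there either. The part of depth and fragment length in the results below was not tested beyond the values given beside them. The median summit held 16 to 18 fragments in each library, so the presence of a weak peak is subject to sampling.

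Of the 239521 regions, 6000 (2.5%) were gained and 2311 (0.965%) were lost. Both classes had fewer fragments at the summit than all regions did. Gained regions had a median of 14 fragments at the summit and a median percentile of 40.2, and the lost regions had 13 fragments and 34.8, against 18 fragments and 38.8 over all regions and 23 fragments where all 6 libraries had a peak. By rank, gained regions were thus close to the typical region. Next to the threshold, 7493 regions had a peak in 3 of 3 PFF+Rab5 ASO and 1 of 3 PBS libraries, and 3958 had the reverse. The excess of gained over lost regions moved with the libraries and the peaks that were used. With the same number of top peaks from each list it was 4616 against 3262, and with only peaks at least 64 bp wide, the largest of the 6 smallest widths, it was 3937 against 3457. Without PBS replicate 2, the shortest list, 6883 regions were gained and 6362 were lost, and with the same number of top peaks as well the order turned, at 5917 against 6211. Without PBS replicate 1 the counts were 11196 and 3159.

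Gained regions lay farther from start sites and in DNA richer in A and T than lost regions did. Promoters (up to 1 kb on either side of an annotated start) held 321 gained regions (5.35%) and 190 lost regions (8.22%), against 15% of all regions. Intergenic positions more than 50 kb from a start site held 1400 gained regions (23.3%) and 325 lost regions (14.1%), against 15.7% of all. The median distance to the nearest start site was 34884 bp for gained, 20305 bp for lost and 20495 bp for all regions. Introns held 44.7% of gained and 50.8% of lost regions, against 42.8% of all.

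The median GC content within 100 bp of the summit was 42.8% for gained regions, 48.3% for lost regions and 48.3% for all regions. Of the 10439 regions with a GC content under 35%, 864 (8.28%) were gained and 0.402% were lost. The gained share dropped in each bin with rising GC content, from 5.48% at 35 to 40% GC to 2.14% at 45 to 50% and 0.464% at 65% or more. The lost share was highest, at 1.24%, in regions with 45 to 50% GC. Where all 6 libraries had a peak, the heights also differed with GC content. The median effect was 0.33 under 35% GC, 0.23 at 35 to 40%, 0.00 at 45 to 50%, -0.11 at 55 to 60%, -0.07 at 60 to 65% and -0.02 at 65% or more, so it was lowest at 55 to 60% and closer to 0 above that. The median GC content of a whole list was 49.3, 48.8 and 49.3% in PFF+Rab5 ASO and 49.3, 50.7 and 50.2% in PBS, which overlap (exact permutation test, two-sided, p = 0.3).

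**Figure D1:**
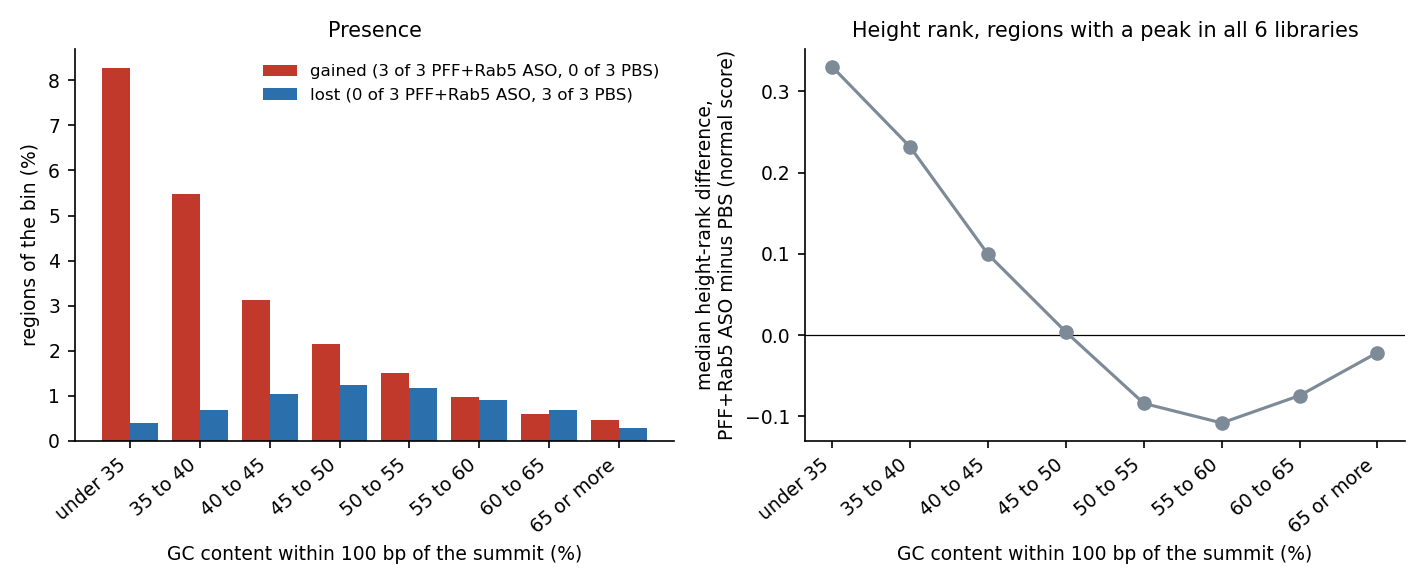
Left, the share of regions in each bin of GC content (percent, within 100 bp of the summit) that were gained (red) or lost (blue) in PFF+Rab5 ASO against PBS; right, the median difference in height rank (normal score, PFF+Rab5 ASO minus PBS) in the same bins where all 6 libraries had a peak. The gained share is 8.28% under 35% GC and 0.464% at 65% or more, and the median difference goes from 0.33 under 35% GC to -0.11 at 55 to 60% and back to -0.02 at 65% or more.

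The gained regions with the highest ranks were intronic or intergenic. A region in an intron of Cerkl, a ceramide kinase-like gene (chr2:79351751-79352099), lay at the 95.6, 86.5 and 98.0 percentiles of the 3 PFF+Rab5 ASO lists. An intronic region of Erc2, a scaffold of the presynaptic active zone (chr14:28060954-28061161), lay at 82.3, 92.0 and 92.6. These peaks were among the higher ones of their lists in each of the 3 libraries, with no peak called in PBS. Regions 19706 bp upstream of Dact1, a modulator of Wnt signalling (94.0, 82.3 and 94.5), and 22126 bp upstream of Stat4, a transcription factor of cytokine signalling (87.1, 81.3 and 85.9), were of like height. The Stat4 region (chr1:51964805-51965022) had no peak in any PFF or PFF+MLi-2 library, whereas the Cerkl region had one in 2 PFF and 3 PFF+MLi-2 libraries.

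Gained regions at promoters were lower. The promoter region of Cldn2, a claudin of tight junctions, lay at the 60.7, 84.5 and 75.9 percentiles, and that of Tusc3, a subunit of the oligosaccharyltransferase complex, at 81.8, 79.8 and 57.6. The region at Sgk3, a kinase with a domain that binds endosomal phosphoinositides (chr1:9847740-9847918, 354 bp upstream), lay at 78.6, 51.5 and 54.4 and also had a peak in 3 of 3 PFF libraries. The region 818 bp upstream of Myt1, a neural zinc finger factor, lay at 76.4, 28.3 and 75.9, so its 3 libraries disagreed on its height. Sdcbp, which encodes syntenin, Syne1, Abi2, Fggy, Sema6a and Gm3558 complete the 10 highest gained promoters, with mean percentiles from 57.2 to 64.3.

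The lost regions with the highest ranks were intronic or distal. The highest (chr10:85739672-85739871), 89623 bp from the start of Pwp1, lay at the 83.6, 80.4 and 75.4 percentiles of the PBS lists, and its sequence with 2 AP-1 matches is given above. A region in an intron of Lrrc8c, a subunit of volume-regulated anion channels, lay at 76.0, 87.0 and 70.3. One in an intron of Syt1, the calcium sensor of synaptic vesicle release (chr10:108581224-108581474), lay at 70.3, 76.4 and 69.4. Others lay in introns of Asap2 (78.8, 62.0 and 75.4), Sptbn4, B3galt1, Fam189a1 and Wdr95, and 102749 bp from Sash1. A further region lay in the annotated body of Fgfr2, where the nearest protein-coding start was that of Oat, 71944 bp away. Of these 10 lost regions, the highest of their class, 9 had a peak in 3 of 3 PFF libraries and 10 in 3 of 3 PFF+MLi-2 libraries. Those 9 were thus missing only from the PFF+Rab5 ASO lists. This was not typical of the class, since 487 of the 2311 lost regions (21.1%) had a peak in all 6 of these libraries. The share over all regions was 35.3%. Lost promoters included Pate1 (72.9, 66.8 and 67.7), Dcstamp (57.2, 73.3 and 68.7), Ikzf3, a lymphoid zinc finger factor (69.2, 40.5 and 71.9), and Rapgef4, which encodes the cAMP-activated exchange factor EPAC2 (65.2, 40.5 and 71.9).

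The genes with the most gained regions were long. Of 17926 protein-coding genes with a region in the gene body or within 10 kb upstream, 2250 had at least 1 gained region, 1316 at least 1 lost region and 415 both. Csmd1, a large complement-related membrane protein of 1643 kb, had 14 gained and 0 lost of 197 regions. Ntm, a neuronal cell adhesion molecule, had 12 gained and 0 lost of 177, and Cdh13, a cadherin, had 11 gained and 1 lost of 201. Prkg1, the cGMP-dependent kinase, had 10 gained and 0 lost of 106 (9.43%), and Magi2, a synaptic scaffold, 10 gained and 0 lost of 128. Each of these shares was above the 2.5% of all regions, but the genes were chosen for their number of gained regions. Macrod2, Erc2, Slit3, a guidance ligand, and Pde4d, a cAMP phosphodiesterase, had 8 to 10 gained regions, and Slit3 and Pde4d had 4 lost regions each as well. The read-through model Gm20388, which spans 4435 kb and other genes, had 13 gained of 867 regions.

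Fgfr2, annotated here over 2961 kb that also span other genes, had the most lost regions, 11 of 470 (2.34%), beside 8 gained regions. Igf1r, the receptor of insulin-like growth factor 1, had 4 lost and 0 gained of 50 regions (8.0%, against 0.965% of all regions), and Psd3, an exchange factor for ARF6, had 4 lost and 0 gained of 76. Syn3, a synapsin, had 5 lost (5.62%) and 2 gained of 89. Ldlrad4, Gpc6, a glypican, and Msi2, an RNA-binding protein, had 4 lost regions each. Of the 17926 genes, 121 held at least 3 gained and 0 lost regions, and 13 held at least 3 lost and 0 gained. In all, 6000 regions were gained and 2311 were lost. The genes were not counted again in the settings where that excess shrank or turned.

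In height, 759 of 81975 regions (0.926%) were higher and 447 (0.545%) were lower in PFF+Rab5 ASO than in PBS. The effects of the called regions were large, with a smallest size of 0.94, a median of 1.37 among higher and -1.30 among lower regions, against a median of -0.02 over all regions tested. The ranks of the 2 groups did not overlap in 19088 regions (23.3%). The adjusted p-values were close to the threshold, with 0.024 as the smallest, and so the number of calls turned on the fit. At an unadjusted p under 0.05 there were 7908 higher and 7454 lower regions. Ranking by -log10 p in place of the fold left 0 and 0 called (8059 and 7890 unadjusted), and leaving out any 1 library left 0 higher and at most 1 lower region (6469 to 7771 and 6116 to 6668 unadjusted). With the replicate number as a block 0 and 0 were called (8000 and 7526 unadjusted), so each named call of height below holds only without the block. Adjustment of the scores for GC content and width left 366 higher and 253 lower. The 59 called regions that the naming rule gave kept their direction in every fit with a value for them, and all lost the call in the rank of -log10 p. With ranks of the summit pileup 19 of them lost it, among them those near Gm33501, in Exoc6b and at Timp3, and with the adjustment for GC content and width 14 did, among them those of Syt1, Csnk1e, Mthfs, Kcnma1 and Dnajc6.

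The largest rise was at a region 40944 bp from Phlpp1, which encodes a phosphatase of the kinase AKT (chr1:106130493-106130808). It lay at the 87.3, 89.1 and 90.9 percentiles in PFF+Rab5 ASO and at 33.7, 6.24 and 7.59 in PBS (effect 2.61, SE 0.24, adjusted p = 0.024). The region over the start of the lncRNA 1700111E14Rik inside Dgki, a diacylglycerol kinase (chr6:36936897-36937114), lay at 95.6, 96.5 and 95.3 against 54.8, 7.71 and 49.8 (effect 2.55, SE 0.32, adjusted p = 0.0298). The groups were far apart at both, and PBS replicate 2 was the lowest of the 6 libraries at each. Among the 10 largest rises were also regions in introns of Zfp438 (2.40) and Adam23, a membrane protein of the synapse (2.29), 13984 bp upstream of Wdr75 (2.30), in Gm15286 (2.24) and 26006 bp from Uchl1, a neuronal ubiquitin hydrolase (2.17). Those nearest to Nmbr (2.27) and Fam84a (2.18) lay over 50 kb from any start site.

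The largest drop was at a region far from any protein-coding gene, 124823 bp upstream of the lncRNA Gm33501 and 306729 bp from Hand2 (chr8:57013716-57014254). It lay at the 65.6, 6.59 and 9.34 percentiles in PFF+Rab5 ASO and at 91.8, 90.1 and 93.2 in PBS (effect -2.53, SE 0.40, adjusted p = 0.0316). A region overlapping an annotated exon within Exoc6b, a subunit of the exocyst (chr6:84892994-84893400), lay at 60.7, 6.59 and 31.0 against 93.0, 80.4 and 83.7 (effect -2.02, SE 0.36, adjusted p = 0.0362). The PBS libraries were close together at the region near Gm33501, and at both regions PFF+Rab5 ASO replicate 1 was the highest of its group. Intronic regions of Klhl3 (-2.01), Sdk1, an adhesion molecule of synapses (-1.95), C2cd3, a centriole protein (-1.91), 7530416G11Rik (-1.85) and Adgrl3, a latrophilin (-1.85), were also among the 10 largest drops.

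A higher and a lower region lay side by side in Nfia, a transcription factor of neural development. The higher region (chr4:98102672-98102914) lay at 91.3, 85.7 and 85.3 in PFF+Rab5 ASO against 42.5, 12.3 and 13.3 in PBS (effect 2.25, SE 0.23, adjusted p = 0.024). The lower region (chr4:98099510-98099753) lay at 44.2, 57.6 and 16.7 against 93.2, 84.5 and 87.0 (effect -1.94, SE 0.28, adjusted p = 0.0315). The 2918 bases between them separate opposite changes in an intron of the same gene. In Syt1 a higher region (chr10:108577389-108577952) lay 3271 bases from the lost region given above. Its percentiles were 77.3, 75 and 77.8 against 23.9, 22.4 and 46.9 (effect 1.40, SE 0.25, adjusted p = 0.0377).

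Of 20035 promoter regions tested, 58 (0.289%) were higher and 27 (0.135%) lower, against 1.94% higher among far intergenic regions. At the promoter of Timp3, an inhibitor of metalloproteinases (chr10:86303146-86303337), the percentiles were 63.4, 58.9 and 74.8 in PFF+Rab5 ASO and 14.1, 12.1 and 2.78 in PBS (effect 1.70, SE 0.27, adjusted p = 0.0316). At that of Rcan1, an inhibitor of calcineurin (chr16:92458373-92458502), they were 67.4, 69.1 and 69.5 against 35.6, 4.58 and 13.1 (effect 1.55, SE 0.25, adjusted p = 0.0316). The 3 PFF+Rab5 ASO libraries stood close together at Rcan1. Both promoters separated the groups fully, but they were chosen by the size of that difference. Other higher promoters among the 10 largest were Olfr285 (1.92), Exd2, an exonuclease (1.79), Prrg1 (1.56), Zeb1, a zinc finger repressor (1.54), Mthfs (1.53) and Trim26, a ubiquitin ligase (1.53).

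Among lower promoters, that of Nuak1, a kinase of the AMPK family (chr10:84392661-84393004), lay at 25.3, 9.91 and 11.7 in PFF+Rab5 ASO against 70.1, 53.9 and 68.6 in PBS (effect -1.52, SE 0.22, adjusted p = 0.0313). The region over the start of Folh1, glutamate carboxypeptidase II (chr7:86775576-86776170), lay at 17.9, 28.3 and 19.2 against 72.9, 56.2 and 67.7 (effect -1.37, SE 0.21, adjusted p = 0.0316). At Csnk1e, a casein kinase of the circadian clock, the values were 23.7, 9.87 and 37.7 against 66.5, 64.1 and 64.9 (effect -1.29, SE 0.26, adjusted p = 0.0471). The groups did not overlap at any of the 3 promoters, which were chosen by the size of their effect. Serpinb1b (-1.68), Pomp, an assembly factor of the proteasome (-1.62), Slco1c1, a transporter of thyroid hormone (-1.48), Egflam (-1.41), Fam19a4 (-1.37), Rgs3, a regulator of G protein signalling (-1.35), and 1810010H24Rik (-1.27) complete the 10.

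**Figure D2:**
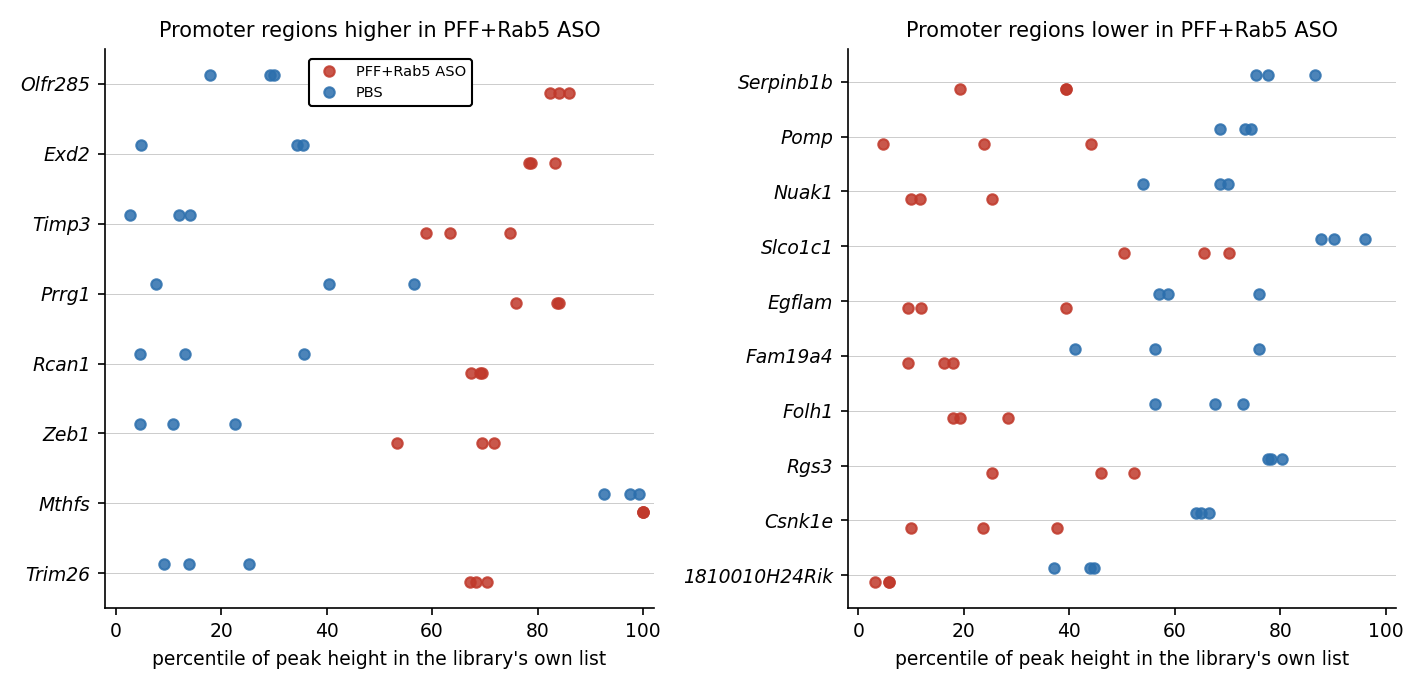
Percentile of the peak height within the library's own list (x axis, 100 is the highest peak) for 8 of the 10 promoter regions with the largest rise (left) and the 10 with the largest drop (right); each point is a library, red for PFF+Rab5 ASO and blue for PBS. The groups do not overlap at any of the 18 promoters shown, which were chosen by the size of this difference. Over all regions tested, 23.3% have no overlap. At Timp3 the values are 58.9 to 74.8 against 2.78 to 14.1.

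AP-1 matches were frequent where accessibility was lower with PFF+Rab5 ASO. TGANTCA, which is its own reverse complement, was present within 100 bp of the summit in 510 of 2311 lost regions (22.1%, Wilson 95% interval 20.4 to 23.8) and in 394 of 6000 gained regions (6.57%, 5.97 to 7.22), against 10.2% of all 239521 regions. The heights had the same order, with a match in 83 of 447 lower regions (18.6%, 15.2 to 22.4) and 44 of 759 higher regions (5.80%, 4.35 to 7.69), against 8.81% where all 6 libraries had a peak. The share was graded with the number of libraries. It was 14.2% where 0 PFF+Rab5 ASO and 1 PBS library had a peak, 18.2% with 2 PBS libraries and 22.1% with 3, and it was 7.61%, 7.17% and 6.57% with 1, 2 or 3 PFF+Rab5 ASO libraries and 0 PBS libraries. AP-1 regions tested for height had a median effect of -0.09.

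RFX matches had the opposite distribution and were rare. Of 481 regions with the palindrome, 44 were gained (9.15%) and 0 were lost, against 2.5% and 0.965% of all regions. A count of 0 among 2311 lost regions has a Wilson upper limit of 0.166%. Without PBS replicate 2, 0.0157% of lost regions had a match. Of the 262 that were tested for height, 15 were higher (5.73%) and 0 lower by limma (89 and 3 at an unadjusted p under 0.05). The shares over all regions tested were 0.926% and 0.545%. Of the 262, 214 (81.7%) had an effect above 0, against 48.2% of all regions tested. Their median effect was 0.39, and it ranged from 0.196 to 0.477 over the alternative fits, with the lowest on the log2 fold scale. As a share, RFX matches were in 0.733% of gained regions (interval 0.547 to 0.983), against 0.201% of all regions. They were in 1.98% of higher regions (1.2 to 3.23), against 0.320% where all 6 libraries had a peak. The Wilson intervals count regions as if independent, which regions of the same libraries are not, and hold no error between libraries.

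Both distributions were also present among regions of like GC content. Between 45 and 50% GC, AP-1 matches were in 23.4% of lost, 12% of all and 6.63% of gained regions, and in each of the 5 bins the lost share was above and the gained share below that of all regions. RFX matches were in 0.756% of gained and 0.25% of all regions between 45 and 50% GC, and the gained share was above that of all regions in each bin.

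The elements that appear in the sequences above belong to regions of the following heights. The Tspan18 region (chr2:93287409-93287678) lay at 64.2, 51.3 and 45.8 in PFF+Rab5 ASO against 3.26, 1.30 and 1.13 in PBS (effect 1.92, SE 0.21, adjusted p = 0.024). The region in Dlgap2, a postsynaptic scaffold (chr8:14641965-14642145), lay at 90.3, 85.4 and 87.2 against 34.9, 43.7 and 34.3 (effect 1.80, SE 0.23, adjusted p = 0.0298). The region 19484 bp from Slc39a10, a zinc transporter (chr1:46912336-46912660), was gained at 73.3, 66.1 and 72.3. These regions were chosen after their values were seen, as were the others with an RFX match. Of the 15 higher RFX regions, 0 were promoters, beside 40 of all 481 RFX regions and 7.64% of all higher regions. With so few regions, nothing is read from that count. The 15 included regions in introns of Pld1, phospholipase D1 (1.75), Mapk14, the p38 kinase (1.42), and Fxyd6, a regulator of the sodium pump (1.46). Another lay 26158 bp from Map2 (1.63). Gained RFX regions lay in introns of Foxn2, Agap1 and Rcan2, and 25326 bp from Htr1d, a serotonin receptor.

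The elements were also counted in each library as a whole. Of all peaks of a list, 8.82, 8.29 and 8.58% had an AP-1 match in PFF+Rab5 ASO and 10.6, 9.48 and 10.2% in PBS. For RFX the shares were 0.253, 0.265 and 0.267% against 0.198, 0.221 and 0.207%. The groups did not overlap for either element, nor for the other 3 counted. Shares of the SOX element AACAATG were 3.04 to 3.07% against 2.65 to 2.84%, those of the bHLH element CAGATG 19.8 to 20.6% against 20.8 to 21.9%, and those of the bHLH element CAGCTG 15.96 to 16.3% against 17.1 to 17.4%. These shares are a description, with no test, since the 5 elements were chosen for their shares in gained and lost regions, which the same lists define. In the libraries outside the comparison, AP-1 shares were 10.98, 10.2 and 10.3% in PFF and 9.70, 9.20 and 10.9% in PFF+MLi-2, and RFX shares were 0.192, 0.1996 and 0.208% and 0.230, 0.212 and 0.222%. The PFF+Rab5 ASO libraries had the lowest AP-1 and the highest RFX shares of the 12. With the same number of top peaks per list, RFX shares were 0.308, 0.305 and 0.298% against 0.225, 0.221 and 0.221% in PBS.

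**Figure D3:**
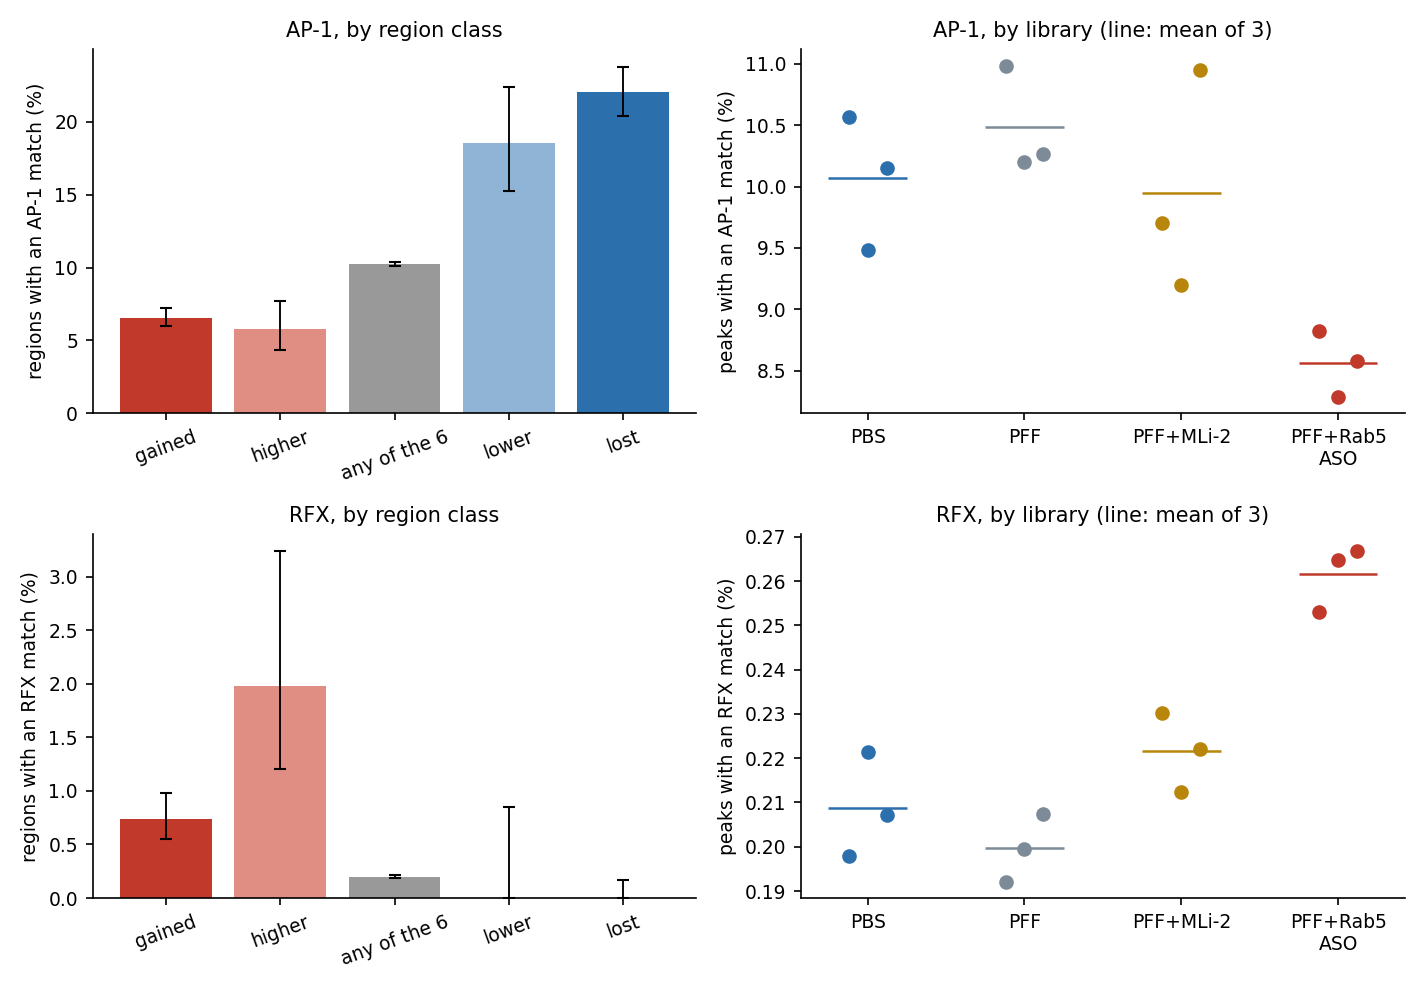
Left, the share of regions (percent) with an AP-1 (top) or RFX (bottom) match within 100 bp of the summit in each class of region, with Wilson 95% intervals; right, the share of all peaks of each of the 12 libraries with the match, with a line at the mean of 3, on axes that do not start at 0. AP-1 matches are in 22.1% of lost and 6.57% of gained regions, and the 3 PFF+Rab5 ASO libraries have the lowest AP-1 and the highest RFX shares.

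At RFX regions the heights in PFF+Rab5 ASO lay above those of every other library. Over the 233 RFX regions that every one of the 12 libraries had, the median normal score was 0.43, 0.45 and 0.48 in PFF+Rab5 ASO, -0.00, 0.02 and -0.05 in PBS, -0.14, -0.11 and -0.15 in PFF and 0.07, -0.09 and 0.00 in PFF+MLi-2. Over the 6412 AP-1 regions the medians were -0.15, -0.23 and -0.17 in PFF+Rab5 ASO and -0.04, -0.11 and -0.07 in PBS. The PFF values for AP-1, 0.01, -0.02 and -0.00, lay above those of both groups. For AP-1 the PFF+MLi-2 values, -0.07, -0.16 and 0.03, overlapped those of both groups.

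**Figure D4:**
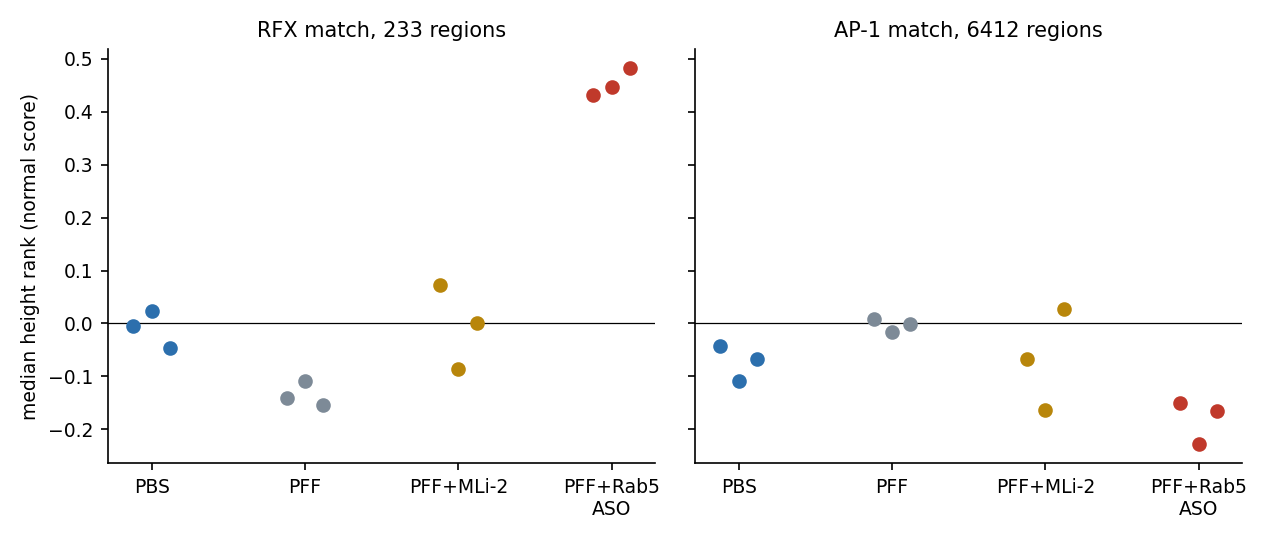
Median height rank (normal score, y axis) in each of the 12 libraries over the 233 regions with an RFX match (left) and the 6412 regions with an AP-1 match (right) that had a peak in every library; each point is a library, grouped by treatment. The PFF+Rab5 ASO libraries lie at 0.43 to 0.48 for RFX, above the other 9 libraries, and at -0.23 to -0.15 for AP-1.

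The 6 libraries that did not enter the definitions show where the gained and lost regions stood in neurons given PFF without the ASO. Of the gained regions, 24.1, 27.3 and 18.8% had a peak in the PFF libraries and 13.2, 13.2 and 11.9% in the PFF+MLi-2 libraries, against 50.3 to 59.3% of all regions. In addition, 3008 gained regions (50.1%) had no peak in any of these 6 libraries, 467 (7.78%) had one in 3 of 3 PFF libraries and 34 (0.567%) in all 6, against 24.4%, 44.1% and 35.3% of all regions. Of the lost regions, 74.9, 63.8 and 56.7% had a peak in the PFF and 65.9, 65.3 and 66.5% in the PFF+MLi-2 libraries. In all, 953 lost regions (41.2%) had a peak in 3 of 3 PFF libraries, which is below the 44.1% of all regions, and 67 (2.90%) had none in the 6, against 24.4% of all. These shares have no test, and the absence of a gained region from PBS and its absence from PFF are not independent of how weak the peak is.

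The other libraries also have a height at the regions called. Over the 474 higher regions that every one of the 12 libraries had, the median score was 0.53, 0.48 and 0.53 in PFF+Rab5 ASO and -0.82, -1.08 and -0.93 in PBS, the values that chose them, and -0.54, -0.46 and -0.46 in PFF and -0.52, -0.71 and -0.62 in PFF+MLi-2. Over the 418 lower regions it was -1.15, -1.28 and -1.19 in PFF+Rab5 ASO and 0.13, 0.10 and 0.10 in PBS, and -0.07, -0.29 and -0.22 in PFF and 0.02, -0.01 and 0.01 in PFF+MLi-2. Libraries that did not choose the regions are expected between the groups that did, so nothing is read from their place.

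**Figure D5:**
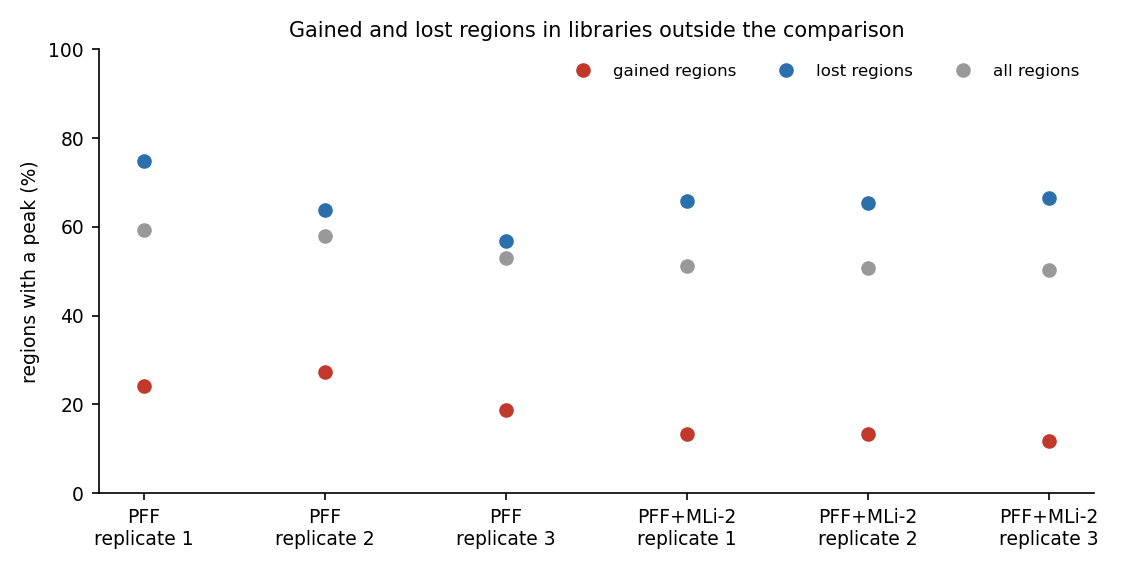
Share of gained (red), lost (blue) and all (grey) regions with a peak (percent, y axis) in each of the 6 libraries that did not enter the definitions. Gained regions have a peak in 11.9 to 27.3% of cases, below all regions in each library, and lost regions in 56.7 to 74.9%, above all regions in each library.

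The targets of the ASO were measured at the chromatin level only, which does not check the knockdown, since antisense oligonucleotides act on RNA. The promoter region of Rab5a (chr17:53478672-53479838) lay at the 92.6, 94.0 and 94.2 percentiles in PFF+Rab5 ASO and 93.5, 94.7 and 93.8 in PBS (effect -0.09, SE 0.20, adjusted p = 0.86). That of Rab5b (chr10:128695764-128696867) lay at 95.3, 94.8 and 97.3 against 93.3, 94.8 and 95.1 (effect 0.12, SE 0.22, adjusted p = 0.82), and that of Rab5c at 96.8, 97 and 97.7 against 98.4, 98.6 and 98.7 (effect -0.36, SE 0.20, adjusted p = 0.38). Differences at the 3 Rab5 promoters did not pass the test. Of the 196 regions of Rab5 genes and early endosome effectors, 4 were gained (2.04%) and 2 lost (1.02%), near the 2.5% and 0.965% of all regions, and 0 of 83 tested were called by limma (6 higher and 4 lower at an unadjusted p under 0.05, median effect 0.02). A gained region of Rab5a itself, 695 bp downstream of the start (chr17:53479929-53480034), was among the weakest peaks of the lists, at the 4.73, 1.34 and 0.895 percentiles. The gained and lost regions of this list also included a lost region in Rabep1, which encodes the effector rabaptin-5. Gained regions lay near Rabgef1 and in Rin2, both exchange factors of Rab5.

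Of the 215 regions of LRRK2 and its Rab substrates, 4 were gained (1.86%) and 2 lost (0.930%), and of 84 tested 1 was higher (1.19%) and 3 were lower (3.57%), against 0.926% and 0.545% of all regions tested. A region in an intron of Ppm1h, the phosphatase of Rab proteins phosphorylated by LRRK2 (chr10:122922316-122922553), lay at 81.8, 86.5 and 81.7 against 29.3, 40.5 and 7.59 (effect 1.91, SE 0.29, adjusted p = 0.0315). A region of Rab10, a substrate of LRRK2 (chr12:3248118-3248387), lay at 29.0, 28.3 and 31.0 against 78.8, 80.4 and 71.9 (effect -1.60, SE 0.22, adjusted p = 0.0301), and it overlaps an exon of the antisense gene Rab10os. Of 212 regions of lysosomal enzymes, membrane proteins and the TFEB family, 2 were gained (0.943%) and 3 lost (1.42%), among them a gained promoter region of Lamp1 (43.4, 12.1 and 52.4) and a lost intronic region of Mitf (60.4, 71.0 and 41.0 in PBS). Of 84 regions of this list tested for height by limma, 0 were called, with 6 higher and 4 lower at an unadjusted p under 0.05. For senescence and DNA damage genes 0 of 86 were called (5 higher and 6 lower unadjusted), for activity-regulated genes 0 of 81 (7 and 2), for interferon genes 0 of 39 (1 and 7) and for unfolded protein and integrated stress genes 0 of 47 (2 and 3). At the shares called among all regions tested, less than 1 call in each direction is the background for lists of this size. In presence, senescence and DNA damage genes had 4 gained (1.85%) and 4 lost (1.85%) of 216 regions. Of their 60 promoter regions 3 were lost, against 0.529% of all promoter regions. These were chosen after their values were seen, and are 1 region at Cdkn1a, the cell cycle inhibitor p21, and 2 neighbouring regions at Lmnb1, lamin B1, all weak peaks, at the 12.4 percentile or below in each PBS list. The activity-regulated, interferon, and unfolded protein and integrated stress lists had 1 (0.621%), 0 and 2 (1.98%) gained regions and 0 lost.

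Of the lists of neuronal genes, 5 held gained regions at shares above the 2.5% of all regions, and lost regions at 0.567 to 1.22%. Synaptic adhesion and presynaptic genes had 62 gained (3.91%) and 9 lost of 1587 regions, axon guidance genes 49 (3.70%) and 11 of 1323, glutamate receptors and postsynaptic scaffolds 47 (3.46%) and 12 of 1359, voltage-gated channels 37 (3.31%) and 11 of 1117, and GABA-A receptor subunits 10 (4.08%) and 3 of 245. The share was below 2.5% for projection neuron identity factors (16 of 730, 2.19%), for heparan sulfate sulfotransferases and diacylglycerol kinases (11 of 542, 2.03%) and for the neuron markers. Introns as a class were gained at 2.61%. In an intron of Cacna1b, the N-type calcium channel (chr2:24664775-24665000), the percentiles were 71.6, 84.2 and 84.6 against 10.9, 22.2 and 24.6 (effect 1.91, SE 0.28, adjusted p = 0.0315). Other higher regions lay in Lsamp (1.99) and Cntnap2 (1.84), which encode adhesion molecules, in the glutamate receptor genes Grm8 (1.77) and Grin2a (1.71), in Sema3a, a repulsive guidance cue (1.74), and in Kcnma1 (1.46). Lower regions lay in Gabrg3 (-1.59), Gabra2 (-1.18) and Nrp1, a receptor of semaphorins (-1.31). A promoter region of Gabra3, chosen after its values were seen, was higher (98.2, 96.5 and 98.2 against 85.6, 80.4 and 85.8). In all, 7 higher and 2 lower of 432 tested belonged to synaptic adhesion and presynaptic genes (1.62% and 0.463%), 3 and 3 of 418 to axon guidance genes (0.718% each), 6 and 3 of 408 to glutamate receptors and scaffolds (1.47% and 0.735%), 6 and 1 of 336 to voltage-gated channels (1.79% and 0.298%), and 1 and 2 of 71 to GABA-A receptor subunits (1.41% and 2.82%), whose median effect was 0.10. The shares over all regions tested were 0.926% and 0.545%.

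Genes of parkinsonism and of synuclein biology had 8 gained (2.77%) and 3 lost (1.04%) of 289 regions, near the shares of all regions. Dnajc6, auxilin, had a lower region (effect -1.16, SE 0.24, adjusted p = 0.049) and a gained one. Among factors of projection neuron identity, Sox5 had a higher region (effect 2.09, SE 0.30, adjusted p = 0.0315), and Nfib and Foxp2 had gained intronic regions. At Hs3st4, a heparan sulfate sulfotransferase, an intronic region lay at 98.5, 97.3 and 98.2 against 69.2, 71.0 and 67.7 (effect 1.87, SE 0.21, adjusted p = 0.024).

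Markers of neurons had a promoter peak for 8 of 8 genes in each of the 6 libraries, and markers of interneurons for 11 of 11. Promoter peaks were also present for 8 to 9 of 9 astrocyte, 5 to 6 of 8 oligodendrocyte lineage, 10 of 10 progenitor, 3 of 6 vascular and 0 to 3 of 8 microglial markers. In bulk libraries fewer cells of a type and less open chromatin per cell cannot be told apart. Neuron markers had 7 gained (2.41%) and 7 lost (2.41%) of 290 regions, against 2.5% and 0.965% of all regions, and the lost ones included a promoter region of Map2, a microtubule-associated protein. Astrocyte genes had 3 gained (2.59%) and 2 lost (1.72%) of 116 regions and 1 lower region, in Slc1a2, the glutamate transporter (60.7, 61.2 and 57.6 against 94.3, 80.0 and 83.7; effect -1.25, SE 0.24, adjusted p = 0.0415). Oligodendrocyte lineage genes had 0 gained and 2 lost of 84 regions (2.38%), which lay 2967 bp upstream of Olig2 and 4304 bp upstream of Sox10, and 1 lower region near Mbp (effect -1.23, SE 0.23, adjusted p = 0.0396). Vascular and mesenchymal genes had 3 gained (6.82%) and 0 lost of 44 regions, of which one in an intron of Pecam1, an endothelial adhesion molecule, lay at 93.5, 75.7 and 80.4. Interneuron genes had 2 gained (2.5%) and 0 lost of 80 regions, and microglial and progenitor genes had 0 of either. The part of other cell types in the results was not tested.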

How the data were processed

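ATAC-seq peak lists of 6 libraries, 3 per group, were compared. The study's methods state that the authors used Trim Galore 0.6.7 for trimming, Bowtie2 2.5.1 for alignment (GRCm38) and MACS2 2.2.7.1 for peak calling in each library. Use of a control, the caller's options, duplicate handling and the Tn5 shift are not given in the sources used here, and they set peak number, width and height. The deposited lists give for each peak a score (not used), a fold enrichment (a ratio) and -log10 p and -log10 q values. Read counts were not analysed here, so the study's test on counts could not be run.

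Of 985941 peaks, 776 outside chromosomes 1 to 19, X and Y were left out. Regions, classes and summit windows were computed in Python 3.11.15 (numpy 2.4.6, pandas 2.3.3, scipy 1.17.1, pysam 0.24.0, statsmodels 0.14.6, matplotlib 3.10.9) with GENCODE vM21. Height ranks were compared by limma 3.58.1 under R 4.3.3 (functions lmFit and eBayes, no covariate). Steps were tested on simulated data. Per the study's methods a replicate is a pregnancy whose cultures were divided at random over the groups. Whether libraries with the same number share a pregnancy is not given in the sources used here. Members, lists and tests were chosen with earlier results of these data known. The text names the 10 highest or largest regions of each class and of its protein-coding promoters, the 10 genes with most gained or lost regions, up to 4 genes of each list and the Rab5 genes. Some regions that this rule gives are not reported here, and the RFX regions are outside it. Motifs were searched on both strands, within 100 bp of the summit.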

Additional observations from a re-analysis of the deposited data

How the results depend on the processing

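The counts of gained and lost regions depended on the libraries and the rule. Presence in 2 or 3 libraries of a group and 0 of the other gave 15915 gained and 9508 lost. With peaks of at least 64 bp, 3937 were gained. Leaving out each library gave 6883 to 11196 gained and 2959 to 6362 lost regions. With the same number of top peaks per list as well, 5917 to 7189 were gained, and lost regions were 5163, 6211 and 5818 without PBS replicate 1, 2 and 3 and 5221, 4797 and 4364 without PFF+Rab5 ASO replicate 1, 2 and 3. A stricter q-value, an overlap of 50 bp and a merge over 12 lists kept both counts within 1.5 times. For height (759 higher, 447 lower), the rank of -log10 p gave 0 and 0, quantile normalized log2 fold 1412 and 865, adjustment for GC content and width 366 and 253, and the trend and robust options of eBayes 1907 and 1114. Leaving out each library gave 0 to 0 higher and 0 to 1 lower. The correlations of same-numbered deviations were low (0.053, 0.038 and 0.023), though each library correlated best with its own number, and cultures of a pregnancy were divided over the groups, so a pairing by number is possible but not stated. With the replicate block 0 and 0 were called by limma (smallest adjusted p 0.0802, 8000 higher and 7526 lower at an unadjusted p under 0.05), and with the replicate block and adjustment for GC content and width 0 and 0 (7631 and 7422). The cause of these shifts was not tested. With the same number of top peaks per list, the difference in covered length was -0.0837 Mb in place of 0.790, and that in the share of peaks in introns -0.0740 in place of 0.169 percentage points. The AP-1 share of lost regions was 20.4% with the same number of top peaks and 19.3% with -log10 q of at least 5. It was 19.4 to 21.5% without a library and, with the same number of top peaks as well, 18.2, 19.7 and 18.2% without PBS replicate 1, 2 and 3 and 19.1, 18.5 and 19.7% without PFF+Rab5 ASO replicate 1, 2 and 3. That of gained regions was then 7.27% without PBS replicate 1 and 7.4976 and 7.37% without PFF+Rab5 ASO replicate 2 and 3. The RFX share of gained regions was 0.997% with the same number of top peaks, 1.08% with -log10 q of at least 5, 0.550 to 0.726% without a library and 0.997% without PBS replicate 2 at the same number of top peaks. Fragments at the summit (16 to 18 at the median) limit what a missing peak can show.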

Other observations

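Shares of other sequence elements in the classes of region are given without a test. The SOX element AACAATG occurred in the summit windows of 4.92% of gained and 2.55% of lost regions, against 3.07% of all, and 4.01% of all regions that hold it were gained. The bHLH element CAGCTG was in 10.3% of gained and 18.0% of lost regions, against 16.5% of all, and CAGATG in 18.5% and 27.1%, against 21.6%. The octamer ATGCAAAT of POU factors was in 2.55% and 1.51%, against 1.83%. The CTCF core was in 0.517% of gained and 0.865% of lost regions, against 1.95% of all and 3.53% where all 6 libraries had a peak. Over the 1475 regions of chromosome X tested for height the median effect was 0.0735, against -0.0447 to 0.0104 on the autosomes.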
